A study of Mus musculus with 6 samples.

Results

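Genes of autophagy and of its control were examined in the H3K27ac landscape of mouse quadriceps (Quad). The set held 40 genes, taken by symbol, and its members were all H3K27ac peaks whose nearest annotated start site belonged to 1 of these genes. This gave 120 of the 46988 peaks listed for control muscle (0.255%) and 105 of the 40721 peaks listed for detrained muscle (0.258%). The control peaks carried the names of 37 of the 40 genes and the detrained peaks the names of 36.

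Control mice were sedentary, and detraining mice had voluntary access to running wheels for 4 weeks and rested for 72 hours before harvest. In both groups the mice were 8 weeks old at the start. Per the study's methods all were male C57BL/6J mice and each sample was 1 quadriceps of 1 animal, and the labels give wild type C57BL/6 for the H3K27ac libraries but C57BL/7 and C57BL/8 for the inputs. Each group comprised 2 H3K27ac libraries and 1 input library, with 20805019 to 22400894 tags per H3K27ac library. The H3K27ac libraries are called C2 and C3 (control) and Ex1 and Ex2 (detrained), as in the tables. Whole muscle was used, so fewer cells of a type and less acetylation per cell cannot be told apart. Of 8 muscle fibre marker genes, 7 had a peak by name in each list, while peaks were also named for 4 of 4 endothelial, 3 of 4 macrophage, 3 of 3 fibroblast, 2 of 2 satellite cell and 0 of 2 adipocyte markers. Of 5 genes of other tissues, Apoa1 alone had peaks under its name, 8 in control and 6 in detrained muscle. The part of other cell types in the results was not tested.

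Macroautophagy encloses cytoplasm in a double membrane, the autophagosome, which then fuses with a lysosome. A kinase complex (Ulk1, Ulk2, Atg13, Rb1cc1, Atg101) starts the process. Lipid kinase complexes, which hold Pik3c3 and Becn1 with either Atg14 or Uvrag, mark membranes. In addition, 2 conjugation systems attach proteins of the LC3 and GABARAP families to the autophagosome membrane. Tfeb, Tfe3 and Mitf are related transcription factors that bind E-box sequences of the CACGTG type in genes of lysosomes and autophagy. H3K27ac is a histone mark of active promoters and enhancers, and skeletal muscle relies on autophagy to clear damaged mitochondria and during fasting and exercise.

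RefSeq promoter sequences (GRCm38.p6, 250 bases before to 50 after a start site) matched 33 of the 40 genes. The core CACGTG, searched on both strands, was present in 6 of these 33 genes (18.2%), namely Atg3, Atg5, Atg7, Atg14, Bnip3 and Lamp1, against 8.09% of all 27025 genes in the promoter table and 11.5% of the 11216 genes whose promoter lay in a control peak. The longer form TCACGTG, which contains the core, was present in 4 of the 33 (12.1%, against 4.29% of all genes and 6.87% of genes whose promoter lay in a control peak). These 4 are shown because they hold the longer form of the E-box, with TCACGTG on either strand in capitals and the start site after base 250.
Atg3 (chr16:45158579-45158878, plus strand): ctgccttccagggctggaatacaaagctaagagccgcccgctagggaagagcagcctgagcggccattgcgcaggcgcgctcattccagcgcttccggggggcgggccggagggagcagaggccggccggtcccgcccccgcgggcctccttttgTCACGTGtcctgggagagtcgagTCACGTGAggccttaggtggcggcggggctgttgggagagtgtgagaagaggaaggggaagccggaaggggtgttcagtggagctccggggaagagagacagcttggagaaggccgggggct
Atg7 (chr6:114670846-114671145, plus strand): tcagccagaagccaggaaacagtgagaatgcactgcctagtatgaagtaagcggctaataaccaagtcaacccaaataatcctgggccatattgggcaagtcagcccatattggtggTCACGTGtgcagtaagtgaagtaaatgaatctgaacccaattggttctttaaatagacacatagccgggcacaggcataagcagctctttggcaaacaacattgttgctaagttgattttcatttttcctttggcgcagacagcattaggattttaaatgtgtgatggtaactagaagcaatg
Atg14 (chr14:47568385-47568684, minus strand): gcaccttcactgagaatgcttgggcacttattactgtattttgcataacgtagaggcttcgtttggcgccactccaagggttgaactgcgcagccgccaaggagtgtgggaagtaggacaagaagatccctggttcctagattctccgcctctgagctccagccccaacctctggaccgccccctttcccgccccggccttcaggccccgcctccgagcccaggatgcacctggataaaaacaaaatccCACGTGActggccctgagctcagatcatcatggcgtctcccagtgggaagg
Lamp1 (chr8:13158911-13159210, plus strand): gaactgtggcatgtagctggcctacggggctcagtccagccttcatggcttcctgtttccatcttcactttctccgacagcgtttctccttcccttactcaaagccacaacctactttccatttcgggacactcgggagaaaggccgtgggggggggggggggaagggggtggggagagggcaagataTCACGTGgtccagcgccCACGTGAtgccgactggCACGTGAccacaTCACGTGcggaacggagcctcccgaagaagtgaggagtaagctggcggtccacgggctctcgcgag
The Lamp1 promoter held 4 separate cores, which began 61, 45, 28 and 15 bases before the start site, and the Atg3 promoter held 2, at 94 and 71 bases. Atg7 and Atg14 held 1 each, at 132 bases and at the last base before the start site. The windows of Atg3, Atg14 and Lamp1 lay under a peak in both lists, whereas that of Atg7 lay under none. The H3K27ac peak at the start of Atg7 sat at another start site, the one its annotation refers to. The letters GTAAACA (a forkhead factor motif), TCAAGGTCA (an ERR motif) and the MEF2 motif were found in 0 of the 33 genes, against 4.05%, 0.466% and 0.636% of all genes. These matches describe the letters in the window and are not measured binding.

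The acetylation of a peak is given as tag density, in tags per kb of the called peak per 10000000 total tags of the library. Tags per library were estimated from the deposited pooled tags and log2 values, which are shrunken, so the spread within a group is understated for weak peaks. Member peaks were more densely tagged than listed peaks as a whole. Their median density was 33.8 against 27.6 for all control peaks and 34.7 against 30.2 for all detrained peaks. This was not particular to the members. Medians of the lysosomal and other autophagy lists described below were 41.0 and 35.8 in control peaks. In detrained peaks they were 38.1 and 46.3. Counted by peak, 24.2% of member peaks in control and 25.7% in detrained muscle were centred within 1 kb of a start site, against 20.5% and 23.4% of all peaks. Within start-site peaks alone the median density was 67.0 for members and 58.8 for all control peaks, and 68.3 and 58.1 in detrained muscle. Introns contained 71 of the 120 control and 58 of the 105 detrained member peaks. Peaks are named for the gene with the nearest start site, and 14 control (11.7%, against 16.1% of all named peaks) and 11 detrained member peaks (10.5%, against 15.9%) were annotated in a transcript of another gene. Those at the start sites of Atg2b, Atg3, Atg4a and Atg9a were annotated to the promoters of the neighbours Gskip, Slc35a5, Psmd10 and Ankzf1, and the acetylation of each such pair of genes cannot be told apart. These are descriptions of 2 peak lists and were not tested.

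At the level of start sites the set was nearly complete. A listed peak covered at least 1 RefSeq start site of 39 of the 40 members in control (97.5%) and of 38 in detrained muscle (95.0%), whereas 52.8% and 52.6% of all 21004 protein-coding genes had such a peak. Pik3c3, the catalytic lipid kinase, had no peak over its start site in either list, and its nearest peak was centred 81557 bases away in control and 82469 bases away in detrained muscle. Atg12, Atg4b and Gabarapl1 had no peak under their own names because the peaks over their start sites were named for neighbours with a nearer start. The start site of Atg4b, a protease that processes LC3, lay in a peak named for Thap4, with a density of 56.9 and 46.7 in the control libraries and 60.2 and 51.7 in the detrained libraries. Atg12, a ubiquitin-like protein that is joined to Atg5, shared a peak with Ap3s1 at 88.7 and 92.8 in control and 96.0 and 98.9 in detrained libraries. Gabarapl1 lay in a peak named for 1700101I11Rik, at 57.7 and 61.6 in control and 61.8 and 70.4 in detrained libraries. In density the detrained values overlapped the control values for Atg4b and lay above them for Atg12 and Gabarapl1. The Atg12 and Gabarapl1 peaks were shorter in detrained muscle, at 1894 against 2274 bp and 3544 against 4153 bp. In tags per peak Atg12 was on the opposite side, at 202 and 211 in control and 182 and 187 in detrained libraries, and Gabarapl1 overlapped.

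The number of peaks per gene varied from 0 to 14. Uvrag, a lipid kinase complex subunit, had 14 control and 8 detrained peaks, and Mitf had 11 and 12. Atg7 had 10 and 8, Fundc1 had 6 and 7, and Atg4c had 6 and 5. Of the 37 members with a peak under their names, 18 had equal numbers in both lists, 12 had more control peaks and 7 had more detrained peaks. Shares over all genes were not counted for these numbers. Peaks per named gene averaged 3.24 in control and 2.92 in detrained muscle for members, against 3.18 and 2.83 for all genes. Much of the difference in member peaks between the lists lay in weak peaks and in how peaks were joined. A stricter list held peaks at least 4-fold over input with an adjusted p below 0.001 in the authors' columns. Member peaks in it numbered 78 of 23830 in control and 77 of 25031 in detrained muscle.

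**Figure D1:**
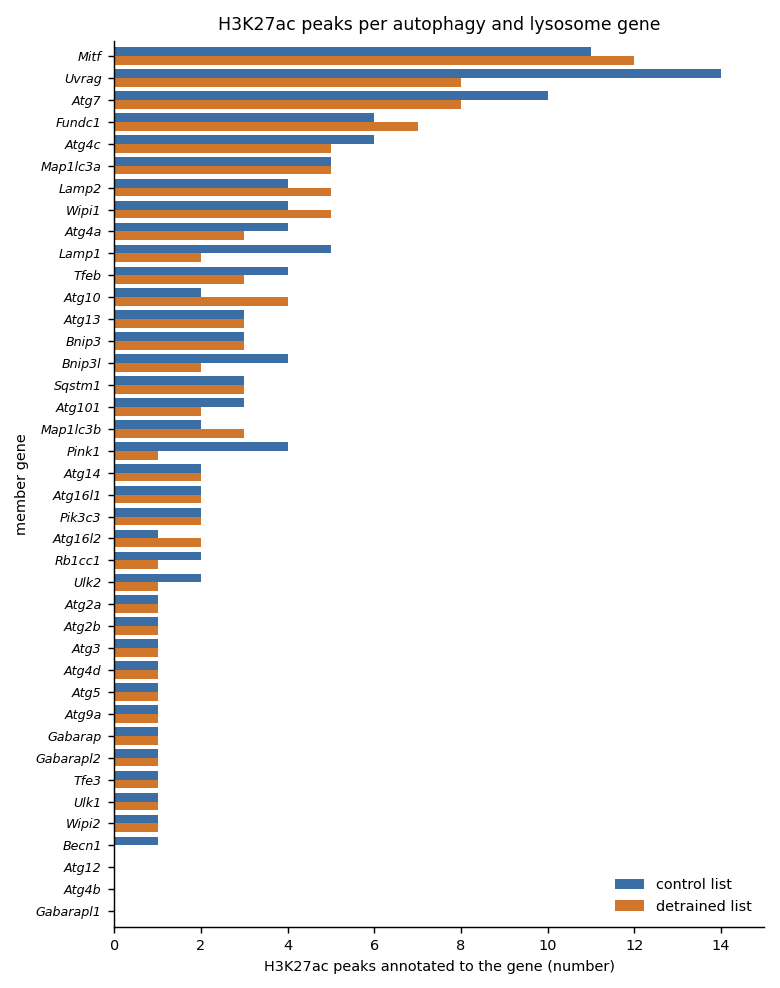
Number of H3K27ac peaks (horizontal axis) annotated to each of the 40 member genes (vertical axis), with a blue bar for the control list and an orange bar for the detrained list. Uvrag has 14 against 8 peaks, Mitf 11 against 12, and Becn1 has 1 peak in the control list only, while Atg12, Atg4b and Gabarapl1 have none under their names.

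Most member peaks were found again in the other list. An overlap by at least 1 base was found for 84.2% of control member peaks, against 72.1% of the whole control list, and for 89.5% of detrained member peaks, against 82.0% of the whole detrained list. The 19 control peaks without an overlap belonged to 10 genes and were weak, with a median of 12.4 pooled tags per 10000000 against 116.7 for the member peaks paired between lists. Uvrag held 5 of them, Pink1 held 3, and Atg7, Mitf and Bnip3l held 2 each. The strongest was the peak at the start site of Becn1, a regulatory subunit of the lipid kinase complexes. It had 61.8 pooled tags and a density of 49.2 and 56.7 in C2 and C3, above 80.9% of control peaks. A peak that is not listed is not a measured absence of acetylation, since its tags in the other group are not in the tables. The 11 detrained peaks without an overlap belonged to 9 genes and had a median of 14.4 pooled tags. The strongest lay 4652 bases upstream of the start site of Wipi1, a protein that binds the lipid made by the lipid kinase. It had 54.5 pooled tags and a density of 30.8 and 31.4 in Ex1 and Ex2.

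To compare acetylation between the groups, control and detrained peaks were paired where at least 50% of each was covered by the other and neither met this with a second peak. This gave 79 member pairs in 36 genes, out of 26432 pairs in all. Both detrained libraries lay above both control libraries in 21 member pairs (26.6%), and this was so in 21.3% of all pairs. They lay below in 18 member pairs (22.8%), against 27.2% of all pairs, and the libraries overlapped in the other 40. The median log2 ratio of detrained over control density was -0.032 for members and -0.026 for all pairs. The tables were normalized separately and hold 2 libraries per group, for which an exact permutation test cannot give a two-sided p below 0.333, so no test between the groups was made.

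Few member peaks differed by 1.5-fold or more with libraries that did not overlap. The start-site peak of Map1lc3b was the only pair past this size with a higher detrained density, and 1.1% of all pairs were. There were 3 lower pairs, in introns of Atg4c and Lamp2 and upstream of Atg101, and 2.06% of all pairs were lower by this rule. Density has the called length as its divisor, so a peak called shorter with the same tags has a higher density. Of the 21 pairs with higher density 20 were shorter in the detrained list (95.2%, against 80.4% of all pairs with higher density), and of the 18 with lower density 17 were longer (94.4%, against 80.1%).

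**Figure D2:**
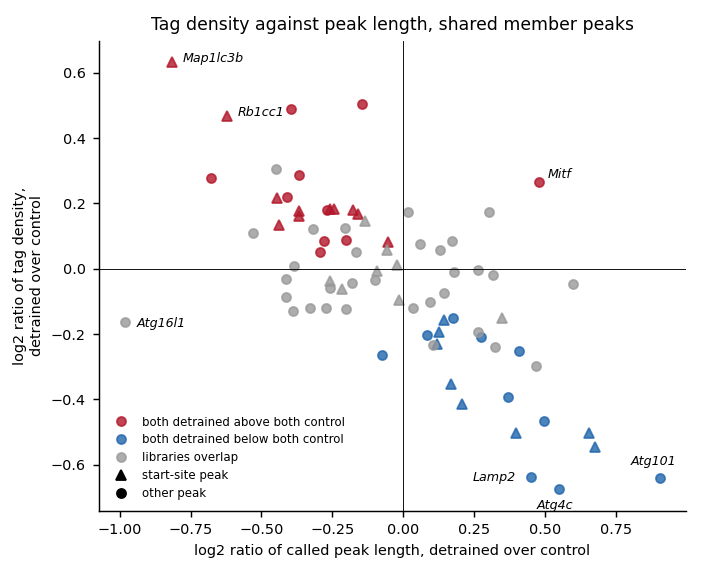
Log2 ratio of tag density (vertical axis) against log2 ratio of called peak length (horizontal axis), both detrained over control, for the 79 shared member peaks, with triangles for start-site peaks and circles for others. Red points have both detrained libraries above both control libraries and blue points have them below. The points run from short, dense detrained peaks such as Map1lc3b at the upper left to long, sparse ones such as Atg101 at the lower right, and Mitf is the red point to the right of 0.

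Counted as tags per peak, without division by length, 10 member pairs were higher (12.7%, against 24.7% of all pairs) and 28 were lower (35.4%, against 28.8%). The median log2 ratio was then -0.091 for members and -0.019 for all pairs. Only 2 member pairs were higher by both measures, where 6.37% of all pairs were, and 4 were lower by both, where 9.6% of all pairs were. The 2 higher pairs lay within the first intron of Mitf and 18501 bases upstream of Fundc1, and the 4 lower ones were the start-site peaks of Atg16l1, Atg4c and Atg5 and a peak upstream of Bnip3. In 13 member pairs the sides were opposite (16.5%, against 14.5% of all pairs).

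Start-site peaks, centred within 1 kb of the start site in at least 1 list, gave 27 member pairs. Wipi1 is among them through its detrained peak alone, and of the 26 pairs centred there in both lists 10 were higher (38.5%, against 23.2% of the 7941 such pairs of all genes) and 8 were lower in density (30.8%, against 30.4%). Of the 27 pairs 11 had higher density in both detrained libraries (40.7%, against 23.5% of the 8643 start-site pairs of all genes) and 8 had lower density (29.6%, against 30.5%). All 11 higher peaks were called shorter in detrained muscle, and in tags per peak 6 of them were lower and 5 overlapped, so that 0 of the 11 were higher by both measures. All 8 lower peaks were called longer, and 3 of them were also lower in tags per peak (11.1% of the 27). Among all start-site pairs 3.74% were higher and 9.73% were lower by both measures. By tags per peak alone 1 of the 27 was higher (3.70%, against 16.5% of all start-site pairs) and 11 were lower (40.7%, against 30.3%).

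**Figure D3:**
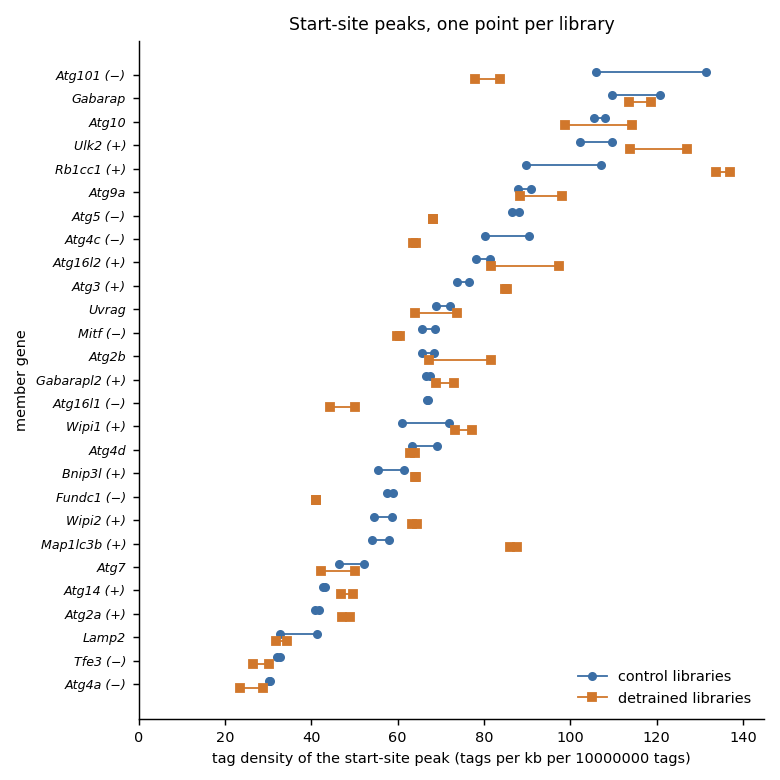
Tag density in tags per kb per 10000000 tags (horizontal axis) of the 27 start-site peaks paired between lists, with 1 row per member gene ordered by control mean, 2 blue points for C2 and C3 and 2 orange points for Ex1 and Ex2. A plus sign marks the 11 genes whose detrained points both lie above the control points and a minus sign the 8 with the reverse, and the widest gaps are at Map1lc3b, Atg101 and Rb1cc1.

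Among the kinase complex, 4 of the 5 members had a peak of their own over the start site. Ulk1, the kinase itself, carried a peak of 5018 bp in control (chr5:110806297-110811315) with a density of 76.5 and 93.2 and of 3776 bp in detrained muscle with 103 and 93.5, a log2 ratio of 0.22. The values of Ex2 and C3 nearly met, and tags per peak overlapped. Ulk2, its relative, had 102 and 110 in control and 127 and 114 in detrained libraries at its start site (log2 ratio 0.18), while its tags per peak overlapped. Rb1cc1, the scaffold also known as FIP200, had 89.7 and 107 in control and 137 and 134 in detrained libraries (log2 ratio 0.47), and its peak was called at 4352 bp and 2826 bp. Its tags per peak were 390 and 467 in control and 387 and 378 in detrained libraries, on the opposite side. Atg101, which stabilizes Atg13, showed the reverse, with 106 and 131 in control and 83.8 and 77.8 in detrained libraries (log2 ratio -0.55) over 2522 bp and 4037 bp, while its tags per peak overlapped (log2 ratio 0.13). A second Atg101 peak 5097 bases upstream was at 51.2 and 73.2 in control and 37.0 and 41.6 in detrained libraries (log2 ratio -0.64). That detrained peak overlapped 2 control peaks, and over the joined region the tags were 184 and 260 in control and 225 and 254 in detrained libraries, which overlap. The start site of Atg13 lay in a peak named for Harbi1, at 106 and 122 in control and 112 and 105 in detrained libraries. Its own 3 peaks lay in introns, and the one 14518 bases downstream had 21.2 and 25.5 in control against 38.7 and 28.0 in detrained libraries, a log2 ratio of 0.50, though its tags per peak overlapped.

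Among the lipid kinase complexes and the membrane-supply proteins, Becn1 had its start-site peak in the control list only, as given above. Atg14 directs its complex to the site of autophagosome formation. It had 43.1 and 42.8 in control and 46.8 and 49.7 in detrained libraries at its start site (log2 ratio 0.17). Its tags per peak overlapped. Uvrag had 72.2 and 69.0 in control and 73.8 and 64.1 in detrained libraries at its start site, which overlap. Of its 7 pairs, 2 were higher, 1 was lower and 4 overlapped. The pair 8550 bases into the gene was at 37.7 and 38.4 in control and 45.2 and 47.7 in detrained libraries, with lower tags per peak. Wipi1 and Wipi2 were higher at the start site, with 61.0 and 72.0 against 77.2 and 73.2 for Wipi1 and 54.5 and 58.7 against 64.6 and 63.5 for Wipi2, and neither was higher in tags per peak. Atg2a, a lipid transfer protein, had 40.9 and 41.8 in control and 47.0 and 49.0 in detrained libraries, with lower tags per peak in detrained muscle. Atg2b and Atg9a, the membrane protein of the vesicles that seed autophagosomes, had libraries that overlapped.

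In the conjugation machinery, start-site peaks lay on both sides. Atg16l1, which places the conjugation enzyme on the membrane, had 66.8 and 67.0 in control and 50.2 and 44.4 in detrained libraries (log2 ratio -0.50), and tags per peak of 94.9 and 95.2 against 94.1 and 83.3. Atg5, its partner, had 86.4 and 88.2 in control and 68.3 and 68.3 in detrained libraries (log2 ratio -0.35), and tags per peak of 131 and 134 against 116 and 116. Atg4c, another LC3 protease, had 80.2 and 90.6 in control and 64.2 and 63.6 in detrained libraries (log2 ratio -0.41), and tags per peak of 234 and 264 against 217 and 215. In these 3 genes no detrained value reached a control value by either measure, but the fold was under 1.5. An intronic Atg4c peak 12505 bases from the start site had the lowest ratio of the set, with 36.5 and 39.2 in control and 25.1 and 22.4 in detrained libraries (log2 ratio -0.67). Its tags per peak overlapped. Atg3, which carries LC3 to its lipid and whose promoter holds 2 TCACGTG sites, had 76.6 and 73.8 in control and 85.4 and 84.9 in detrained libraries, with overlapping tags per peak. Atg16l2 was higher in density, at 78.2 and 81.3 against 97.4 and 81.7, and lower in tags per peak, at 198 and 206 against 191 and 160.3. Atg4a was lower in density, at 30.6 and 30.3 against 23.4 and 28.7, and its tags per peak overlapped. Atg7, the activating enzyme of both systems, had 52.2 and 46.5 against 50.2 and 42.3 at its start site, and Atg10 had 108 and 105 against 114 and 98.7, and both overlapped.

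Map1lc3b, which encodes LC3B, had the highest ratio of the set. Its start-site peak (chr8:121589580-121592771 in control) was at 54.0 and 58.1 in control and 86.0 and 87.6 in detrained libraries, a log2 ratio of 0.63 or 1.55-fold. It was called at 3191 bp in control and 1814 bp in detrained muscle, and its tags per peak were 172 and 185 against 156 and 159, which are lower. Gabarap, of the sister family, had 110 and 121 against 119 and 114, which overlap. Gabarapl2, of the same family, had 66.5 and 67.6 against 68.8 and 73.0, which do not. Tags per peak overlapped for Gabarap and for Gabarapl2. Map1lc3a, which encodes LC3A, had 5 peaks under its name in each list, of which 1 lay over the gene and the others in introns of its neighbour Pigu. The one over its start site was at 73.5 and 83.0 in control and 78.1 and 76.9 in detrained libraries, which overlap, and its tags per peak were higher, at 364 and 411 against 438 and 431. The 2 pairs within Pigu also overlapped in density and were higher in tags per peak, with longer detrained peaks. Also within Pigu, 2 control peaks of 3383 and 4060 bp were listed as 1 detrained peak of 8975 bp, with 452 and 596 tags in control and 590 and 561 tags in detrained libraries.

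The receptors that link cargo to LC3 included the most densely acetylated member peak. Sqstm1, which encodes the ubiquitin-binding receptor p62, had 149 and 189 in control and 163 and 149 in detrained libraries at a peak of 4549 bp that covered its start site (chr11:50209814-50214363). It was above 99.8% of all paired peaks in mean density and the libraries overlapped. After it came the start-site peaks of Gabarap, Rb1cc1, Ulk2 and Atg10, all above at least 96.8% of paired peaks. Bnip3, a mitochondrial receptor, had 77.4 and 84.2 in control and 77.2 and 85.3 in detrained libraries at the peak over its start site, which overlap, while tags per peak were lower, at 691 and 751 against 528 and 583. Its upstream peak, 10788 bases away, had 76.5 and 86.6 against 60.1 and 76.4 (log2 ratio -0.27), and tags per peak of 324 and 367 against 242 and 307. An intronic Bnip3 peak was also lower in density, at 45.1 and 46.3 against 35.1 and 31.3 (log2 ratio -0.47), with tags per peak that overlapped. Bnip3l, its relative, had 55.5 and 61.6 in control and 64.2 and 64.1 in detrained libraries at its start site, with tags per peak on the opposite side. Fundc1, a further mitochondrial receptor, had 59.0 and 57.6 in control and 41.1 and 41.1 in detrained libraries at its start site (log2 ratio -0.50), with tags per peak of 122 and 119 against 134 and 134, again opposite. Its peak 18501 bases upstream had 15.7 and 14.9 in control and 21.1 and 21.9 in detrained libraries (log2 ratio 0.49), and tags per peak were 31.9 and 30.2 against 32.5 and 33.7. Pink1, the kinase that marks damaged mitochondria, had 59.6 and 74.0 in control and 59.4 and 56.0 in detrained libraries over its start site. Tags per peak of this Pink1 pair overlapped. The 3 further control peaks of Pink1 had 11.8 to 18.6 pooled tags.

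Of the transcription factor genes, Tfeb held the longest control peak of the set, 18085 bp in its first intron (chr17:47753107-47771192). It was at 55.1 and 58.9 in control, and its detrained partner of 15122 bp was at 56.2 and 53.3, which overlap. A second detrained peak of 4984 bp lay on the same control peak, so tags per peak of this pair compare unlike stretches. Over the joined region of 2 control and 2 detrained peaks the tags were 1045 and 1112 in control and 1004 and 958 in detrained libraries (log2 ratio -0.14), and the density was 51.9 and 55.2 against 49.9 and 47.6 (log2 ratio -0.13). Both measures were lower in the detrained libraries. From about 1 kb upstream of the start site, Tfeb was acetylated over 13571 bp in 2 control peaks and 14257 bp in 1 detrained peak, with 1016 and 1153 tags in control and 1134 and 1011 in detrained libraries. Tfe3 had 32.1 and 32.7 in control and 30.3 and 26.5 in detrained libraries at its start site (log2 ratio -0.19), with overlapping tags per peak. Mitf has 3 start sites in the promoter table. The one farthest upstream lay in a peak at 65.7 and 68.8 in control and 59.9 and 60.6 in detrained libraries, with overlapping tags per peak. The middle one lay in a control peak of 12.9 pooled tags that was not in the detrained list, and the last, which serves the melanocyte form, lay in no peak. Within the first long intron, the Mitf peak 13680 bases from the start site (chr6:97819045-97822432) had 30.1 and 30.9 in control and 36.1 and 37.3 in detrained libraries. It was longer in detrained muscle, at 4717 bp against 3387 bp, and its tags per peak were 102 and 105 against 170.5 and 176. Among the 21 pairs whose density was higher in both detrained libraries it was the only one with a longer detrained peak, with a log2 ratio of 0.27 in density and 0.74 in tags. The other 6 Mitf pairs had log2 ratios from -0.16 to 0.18.

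Lamp1 and Lamp2 encode the major lysosomal membrane proteins. Around the Lamp1 start site 4 control peaks, of 5414, 3107, 1984 and 4651 bp, lay within 1 detrained peak of 18097 bp, the longest of the set (chr8:13147574-13165671). The 4 control peaks held 728 and 917 tags over 15156 bp, and the detrained peak held 889 and 846 tags over 18097 bp. The control values enclosed the detrained ones. Lamp2 had 41.2 and 32.7 in control and 34.4 and 31.8 in detrained libraries at its start site, which overlap. A weak intronic Lamp2 peak was at 21.95 and 18.99 in control and 11.01 and 15.63 in detrained libraries (log2 ratio -0.64), with overlapping tags per peak.

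**Figure D4:**
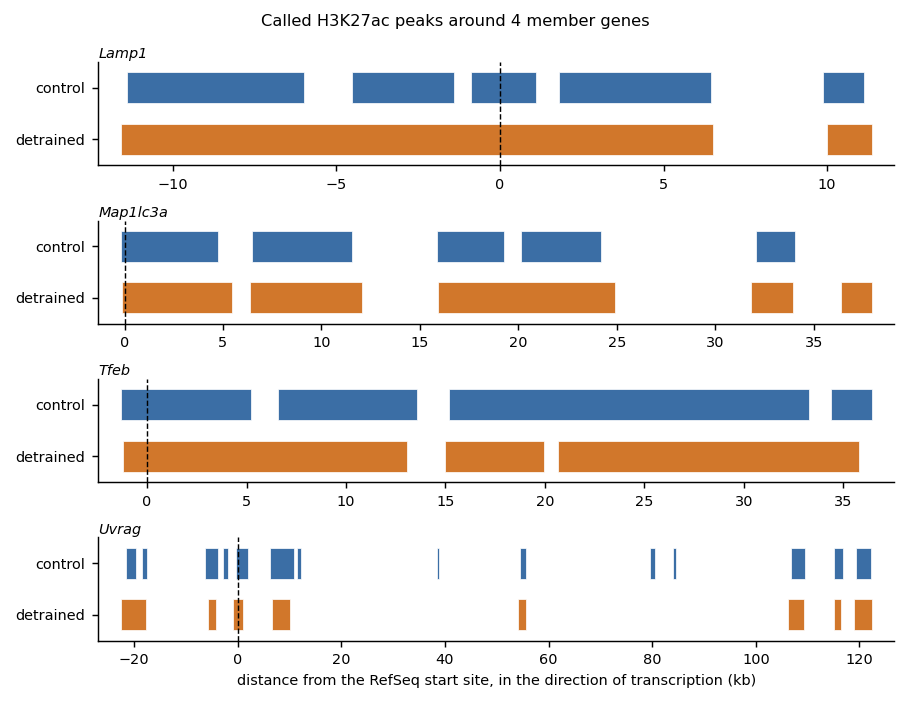
Called H3K27ac peaks named for Lamp1, Map1lc3a, Tfeb and Uvrag, with control peaks in blue, detrained peaks in orange and distance from the RefSeq start site in kb on the horizontal axis (dashed line at 0, transcription to the right). At Lamp1 4 control peaks lie within 1 detrained peak, at Map1lc3a and Tfeb 2 control peaks each lie under 1, and at Uvrag 5 narrow control bars have no detrained peak under them.

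In 8 regions of 7 members the lists were joined differently in this way, with more control than detrained peaks in 6 of them. The whole lists held 46988 control and 40721 detrained peaks, with median lengths of 1568 and 1798 bp. About 20 kb upstream of the Uvrag start site, in an intron of the neighbour Dgat2, 2 control peaks over 2883 bp held 60.3 and 64.2 tags and the detrained peak over 4901 bp held 121 and 135 tags. Per kb these were 20.9 and 22.3 against 24.7 and 27.5. Of the 8 joined regions, this 1 was higher by tags and by density. The region of the longest Tfeb peak, given above, was lower by both. In the other 6 the libraries overlapped by at least 1 of the measures. Joined regions of other genes were not counted, so these counts have no share of all such regions beside them.

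Peaks of the same gene could lie on different sides. Of the 17 members with at least 2 pairs, 13 had log2 ratios of both signs (76.5%, against 65.8% of the 5588 genes with at least 2 pairs). A pair that was higher and another that was lower in both detrained libraries were found in 5 of them (29.4%, against 25.9%). Mitf had 3 higher and 1 lower pair, Fundc1 had 1 higher and 2 lower, and Atg4c had 1 higher and 2 lower. The other 19 members had 1 pair each.

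A list of 35 lysosomal genes (hydrolases, membrane proteins and proton pump subunits) gave 51 pairs in 30 genes, of which 8 were higher (15.7%, against 21.3% of all pairs) and 17 lower (33.3%, against 27.2%), with a median log2 ratio of -0.031. Its highest ratios were at Atp6v0e, a proton pump subunit (0.62), and Lipa, the lysosomal lipase (0.34), and its lowest were 2 peaks of Ctsz, a cathepsin (-0.47 and -0.41). In tags per peak the Atp6v0e peak was lower (log2 ratio -0.26), the Lipa peak overlapped and both Ctsz peaks were higher (0.50 and 0.21). A list of 29 other autophagy genes gave 47 pairs in 28 genes, of which 9 were higher (19.1%) and 10 lower (21.3%), with a median of 0.022. Its highest were Pik3r4, the regulatory subunit of the lipid kinase (0.40), and Vmp1 (0.34), and its lowest were Wdr45b (-0.71) and Rragd (-0.67). The last 2 were also lower in tags per peak (-0.95 and -0.60), whereas the Pik3r4 peak overlapped and the Vmp1 peak was lower (-0.37). A peak covered a start site in 34 of 35 and 28 of 28 genes with a coding transcript in RefSeq. The CACGTG core was found in the promoters of 14 of 27 lysosomal genes (51.9%) and 5 of 25 other autophagy genes, beside 6 of 33 members.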

How the data were processed

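Peaks near autophagy and lysosome genes were described in H3K27ac ChIP-seq tables of control and detrained quadriceps. The members and the gene lists were chosen with earlier results of these data known.

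Per the study's methods, the authors used Bowtie to place reads on mm10 (version 1.2 in the submitters' processing notes), kept uniquely mapped reads and 1 tag per position, called peaks with HOMER on both libraries of a group against its input, and annotated each peak to the nearest start site. The authors deposited 1 table per group. The pooled signal deposited per peak is the tags of both libraries per 10000000 total tags. Within HOMER the authors also made regularized log2 values for each library, normalized within a table, and deposited them. The authors' deposited log2 fold over input and adjusted p-value of a peak were used only for the stricter list. No column was left without a sample or group. The control columns are named C2 and C3, unlike the numbers in the labels, so only the group of each column is known.

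The tags of a library were estimated by sharing out the pooled tags by library total and 2 to the power of the log2 value. Density was (tags + 0.5) per kb per 10000000 total tags. Total tags were 20805019 to 22400894 per H3K27ac library and 10812470 and 21298438 for the control and detrained inputs. A start-site peak was centred within 1 kb of the annotated start site, and a start-site pair had at least 1 such peak. Start sites and promoters came from RefSeq on GRCm38.p6, and 0 peaks ended past the end of a chromosome of that build. Counts of joined regions, start sites covered by a peak and promoters covered by a peak were added after the values were seen.

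The tables hold no counts per library and were normalized separately, so the groups were compared by whether their libraries overlapped and no p was computed. The genes named were the start-site pairs whose groups did not overlap, the 5 highest and 5 lowest ratios, the 5 densest peaks, the 5 genes with most peaks, genes without a peak, the longest peaks, and the 2 highest and 2 lowest ratios of each list. Other members were named to complete a role. Alternatives covered length, added tags, input subtraction, normalization, overlap, the stricter list and the omission of single libraries. Tag estimates, ratios and sides were also tested on simulated tags for the paired peaks. The pairs were taken as made, both groups had the control lengths and the values were not shrunken. Pairing, differences in length and shrinkage were therefore not tested. Calculations ran in Python 3.11.15 with pandas 2.3.3, numpy 2.4.6 and scipy 1.17.1, and plots in matplotlib 3.10.9.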

Additional observations from a re-analysis of the deposited data

How the results depend on the processing

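Member pairs whose groups did not overlap numbered 21 higher and 18 lower as reported. They numbered 10 and 28 in tags per peak, 9 and 7 where 80% coverage of both peaks was asked for, which left 39 of the 79 pairs, and 2 and 4 when the same side was required in both measures, an alternative chosen after seeing the data. Leaving out 1 library gave 25 to 37 higher and 23 to 39 lower, with 37 higher without C3, 39 lower without C2 and 32 lower without Ex1, as fewer values then have to be cleared. Pairs past 1.5-fold numbered 1 higher and 3 lower. With at least 80% covered they were 0 and 0. In tags per peak 1 was lower and 1 was higher. Without 1 library 0 to 3 were higher (0 without C2, 3 without C3 or Ex2) and 3 were lower. Shares of all pairs were not counted for 80% coverage, for omission of a library or past 1.5-fold in tags per peak. Those member counts therefore have no background beside them.

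The median log2 ratio of member pairs (-0.032) was -0.0906 in tags per peak and 0.0181 after normalization to the tags in all listed peaks, and -0.0584 to 0.0595 without 1 library (0.0595 without C3). That of the lysosomal list (-0.031) was 0.00248 in tags per peak, 0.0192 after normalization to tags in listed peaks, -0.00506 with the median of all pairs set to 0, -0.0124 with any overlap, -0.0161 in stricter peaks, and -0.0511 to -0.0152 without 1 library. That of the other autophagy list (0.022) was -0.0407 in tags per peak and -0.0541 to 0.0436 without 1 library. These medians lie near 0 and their sign depends on the setting.

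Control member peaks fell from 120 to 78 in the stricter list. Members with a control start-site peak numbered 28, and 17 by the authors' promoter class. The start-site share of member peaks was 15% in control and 17.1% in detrained muscle by that class, and 35.9% and 35.1% in stricter peaks. The ratio of the median member density to that of all peaks was 1.22 in control and 1.15 in detrained muscle. In tags per peak it was 1.69 and 1.53, in distal peaks 1.10 and 1.09, and in detrained muscle 1.18 in start-site peaks and 1.12 in stricter peaks. The share of member peaks overlapping the other list was 65.8% in control and 75.2% in detrained muscle with at least 50% of each covered, and 94.9% in stricter control peaks.

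Of the 28 peaks named by rule, 11 whose groups did not overlap in density had a ratio of the other sign in tags per peak, as did the Gabarap peak, whose groups overlapped (0.012 and -0.011). The log2 ratio became -0.16 for Rb1cc1, -0.0759 for Ulk2, -0.0603 for Wipi1, -0.31 for Bnip3l, -0.23 for Atg2a, -0.19 for Wipi2, -0.21 for Atg16l2 and -0.18 for Map1lc3b. It became 0.26 and 0.13 for the Atg101 peaks upstream and at the start site and 0.15 for the Fundc1 start site. No other alternative turned the sign of a named peak whose groups did not overlap.

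No paired analysis was possible because columns C2, C3, Ex1 and Ex2 have 1 number in common and the groups were compared without a test. The depth of a peak in each library is known only through pooled tags and shrunken values, and the tags of a peak absent from a list are not in that table, so a difference at a peak listed once could not be measured.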
